A study of Mus musculus with 26 samples.

Results

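The Fbn1 C1041G effect in the untreated ascending aorta of male mice was measured as the difference between 4 libraries from C1041G/+ mice (numbers 2, 4, 6 and 8) and 4 from wild-type (WT) littermates (numbers 1, 3, 5 and 7). These 8 libraries were chosen by their labelled region, genotype and lack of treatment, and they are 8 of the 26 in the series. Of the other 18, 8 are untreated descending aorta of the same genotypes and numbers, used below for the comparison between regions, and 10 are ascending aorta of C1041G/+ mice given antisense oligonucleotides, not used here. The labels give no age and no strain, and they do not say how many mice went into a library, so p-values measure the spread between these libraries. C1041G/+ denotes 1 mutant and 1 normal Fbn1 allele, and the labels do not say whether the outer layer of the vessel was stripped.

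Fibrillin-1, the product of Fbn1, forms the microfibrils that scaffold elastic fibres and that hold latent transforming growth factor beta (TGF-beta) in the matrix. The C1041G change replaces a cysteine of 1 of its repeated domains, and mice heterozygous for it are a standard model of Marfan syndrome, in which the aortic root and ascending aorta dilate. The wall of that segment is made mainly by smooth muscle cells between elastic sheets, with endothelium inside and a fibroblast-rich adventitia outside.

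Fbn1 itself (chr2:125300594-125507993 in mm10, the span of the gene) stood at 408, 285, 498 and 434 CPM in WT libraries 1, 3, 5 and 7 and at 348, 337, 383 and 386 CPM in C1041G/+ libraries 2, 4, 6 and 8, and all lists of 4 values below follow that order; a range is the lowest to the highest of the 4. CPM is the count of a gene relative to the library total after scaling of library totals by the trimmed mean of M values (TMM). The groups overlapped (log2 fold change -0.16 ± 0.15, standard error, SE; adjusted p = 0.63). A missense allele is still transcribed, so this level does not check the genotype labels.

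The ascending libraries held 18534146 to 23959303 counts, 2.51 to 4.11% of them mitochondrial. Libraries of the same genotype correlated at 0.976 to 0.988 over log2 CPM of the tested genes and libraries of different genotype at 0.965 to 0.985. Smooth muscle markers (10 genes, none at 0) summed to 19490 to 26476 CPM in WT and 23595 to 30088 CPM in C1041G/+ libraries. Before the results, 2 libraries are to be named. C1041G/+ library 2 had 117 CPM of thymus markers against 9.06 to 18.6 CPM in the other mutant libraries, and WT library 3 had 1412.5 CPM of heart muscle markers against 316 to 882 CPM in the other WT libraries.

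Of 15645 genes tested, 342 (2.19%) passed an adjusted p of 0.05, 185 higher (1.18%) and 157 lower (1%) in C1041G/+ mice. The genes that rose were the more abundant ones: their median WT level was 48.6 CPM, against 19.75 CPM for those that fell and 18.97 CPM for all genes tested. Summed over genes the risers changed by 23345 CPM and the fallers by -3967.3 CPM, while the median log2 fold change was 0.66 among the risers and -0.90 among the fallers. A 2-fold change or more was seen in 108 (0.69%), 41 higher and 67 lower, and a 4-fold change or more in 5 that rose and 15 that fell. The call held in all 8 fits that leave out 1 ascending library for 141 genes, 80 higher and 61 lower, and these lead the account below. The count was 163 without C1041G/+ library 2, 206 without C1041G/+ library 4, and 110 without C1041G/+ library 2 and WT library 3 together, a pair chosen after the data were seen. Among genes below that held in all 8 fits, Ccn2, Gas6, Thbs4, Epyc, Pcolce2, Scx, Vegfd and Rcan1 lost their call without that pair. So did Vipr2, Kcnk1, Msmo1, Mogat2, Osmr, Nptx2, Enpep and Nkx6-1. No called gene changed direction in any alternative fit, apart from those that left out a descending library, where this was not checked. In bulk tissue fewer cells of a type and less RNA per cell cannot be told apart. Of the called genes 161 overlap a gene on the opposite strand, and without strand in the counting their reads cannot be told apart from that gene's; among those named below are Tagln, Cryab, Col18a1, Dnaja4, Gas6, Hsd11b1, Chad, Esm1, Fgf2, Tgfb3, Mfap4, Igfbp7 and Scx.

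**Figure D1:**
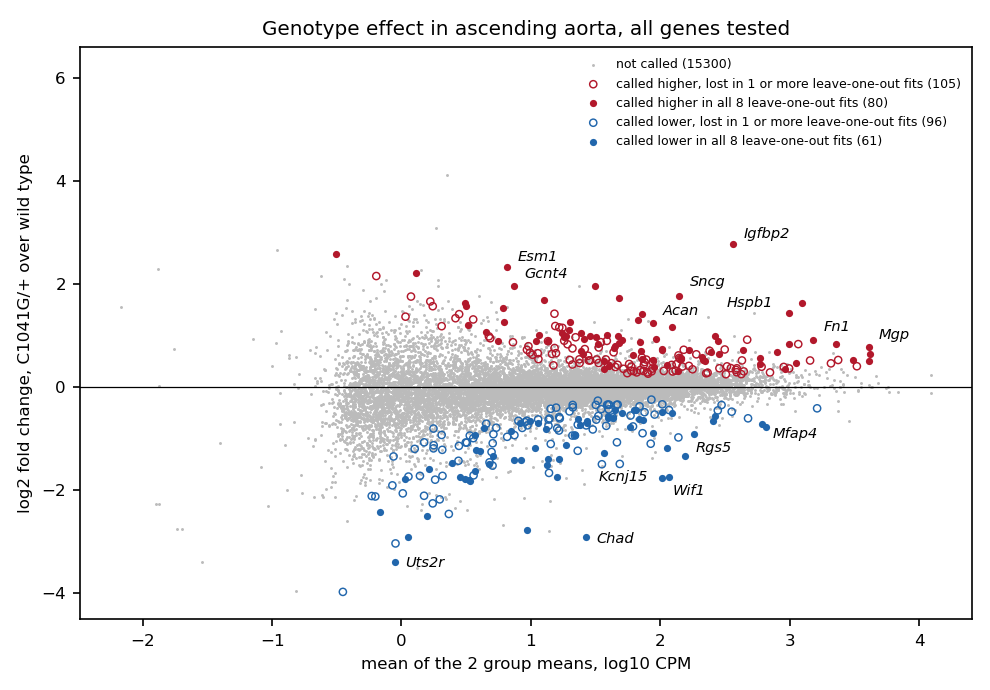
Log2 fold change (C1041G/+ over WT) of the genes tested in ascending aorta against their mean level in log10 CPM, with 3 genes at 0 CPM in all 8 libraries not drawn. Filled points are calls that held in all 8 leave-one-out fits and open points those lost in at least 1; red points are higher and blue points lower in C1041G/+ mice, and filled red points reach the highest levels, with Mgp among them.

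Acan (chr7:79053483-79115099), Igfbp2 (chr1:72824503-72852474) and Kcnj15 (chr16:95257558-95300260; mm10, GENCODE M21 whole-gene spans) were among the genes with the smallest p. Acan encodes aggrecan, the large proteoglycan that loads matrix with water, and it stood at 54.5, 47.6, 52.6 and 52.8 CPM in WT and 119, 127, 112 and 131 CPM in C1041G/+ libraries. All 4 mutant libraries lay above 112 CPM and all WT libraries below 54.5 CPM (log2 fold change 1.24 ± 0.09, adjusted p = 9.4e-07). Igfbp2, which binds insulin-like growth factors outside the cell, rose from 82.3, 84.9, 95 and 111 CPM to 903, 737, 478 and 435 CPM. Every mutant value lay far above every WT value, and mutant libraries 2 and 4 were above 6 and 8. Kcnj15, an inward-rectifier potassium channel gene, fell from 172, 167, 204 and 179 CPM to 57.2, 55.1, 53 and 50.5 CPM, with a narrow range in both groups (log2 fold change -1.74 ± 0.15, adjusted p = 8.9e-06). All 3 held without each library. Other genes with large rises were Gcnt4, which encodes an enzyme that branches sugar chains (2.83, 2.25, 3.36 and 3.64 CPM to 14.2, 9.63, 11.3 and 11.8 CPM), and Sncg, which encodes gamma-synuclein (46.9, 52.4, 79.6 and 75.4 CPM to 189, 259, 204 and 214 CPM). Nptx2, a secreted pentraxin gene, rose from a range of 4.54–8.06 to one of 14.4–23.8 CPM. Hsd11b1, whose enzyme makes active glucocorticoid from its inactive form, was chosen after its values were seen and rose from 38.1, 39.6, 41.8 and 35 CPM to 104, 97.5, 86.4 and 95.4 CPM (log2 fold change 1.31 ± 0.16).

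**Figure D2:**
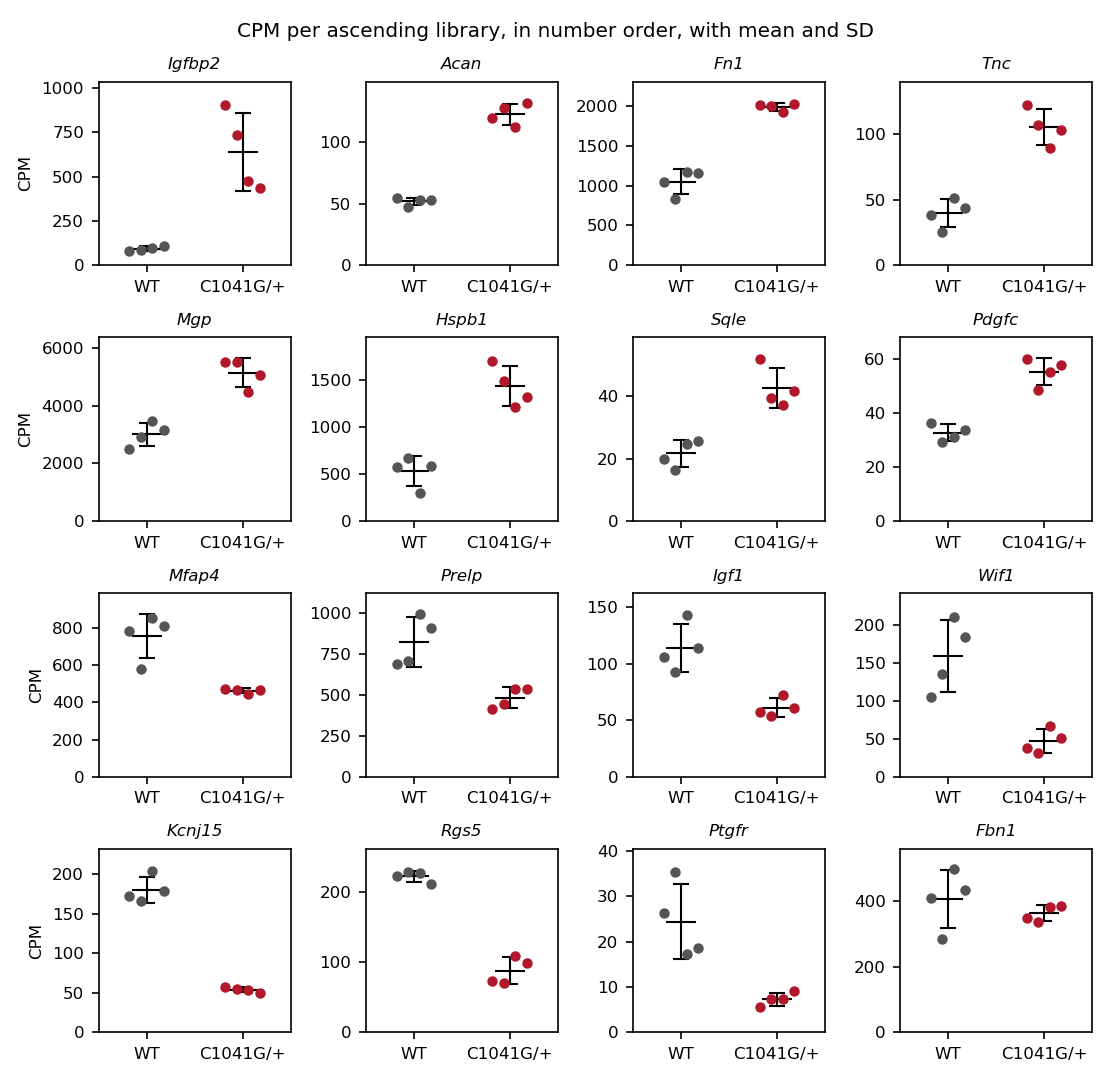
CPM of 16 genes in each ascending library (4 WT in grey, 4 C1041G/+ in red, left to right in number order), with the group mean as a bar and its SD as error bars. The groups are apart in every panel but that of Fbn1, where WT library 3 lies below all mutant libraries.

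Of 35 matricellular and adhesive glycoprotein genes tested, 9 rose, 4 fell and 22 did not pass, beside 1.18% rising and 1% falling of all genes tested. The median log2 fold change over the list was -0.06 against -0.01 for all genes tested. Fn1, which encodes fibronectin, the fibre that cells attach to through integrins, stood at 1049, 832, 1177 and 1157 CPM in WT and 2022, 2003, 1925 and 2031 CPM in C1041G/+ libraries. The mutant libraries lay close together and well above every WT library (log2 fold change 0.92 ± 0.12, adjusted p = 0.00052). Tnc, which encodes tenascin-C, an adhesion-modulating protein of remodelling tissue, rose from 38.1, 25.6, 51.1 and 43.8 CPM to 123, 107, 89.6 and 103 CPM (log2 fold change 1.42 ± 0.17). Postn, which encodes periostin, rose from 3488, 2828, 3414 and 3359.7 CPM to 5445, 5049.7, 4729 and 5158 CPM, and Mfge8, which encodes the milk fat globule protein whose fragment medin is found in the aortic wall, from 713, 561, 779 and 788 CPM to 1340.1, 1322, 1192 and 1191 CPM. Among the CCN genes, whose products are growth-factor-binding matrix proteins, Ccn2 rose from 1454–1987 to 2319–3487 CPM and Ccn3 from 2360.0–2699 to 3506–3754 CPM. Ccn1 overlapped between the groups (274–683 and 404–1042 CPM, adjusted p = 0.42). Igfbp7 rose by 0.50 on the log2 scale and reached 4834 ± 408 CPM (SD, n = 4). Each of the genes said to have risen here held in all 8 leave-one-out fits. Ccn2 lost its call without C1041G/+ library 2 and WT library 3 together.

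Genes of vitamin K-dependent Gla proteins were also among the abundant risers. Mgp, which encodes matrix Gla protein, an inhibitor of arterial calcification, stood at 2493, 2916, 3461 and 3141 CPM and 5532, 5509, 4483 and 5071 CPM. Gas6, a Gla-domain ligand of the receptor Axl, rose from 781, 809, 843 and 816 CPM to 1063, 1000.5, 1065 and 1013 CPM, while Axl overlapped between the groups (524–638 and 545–636 CPM). These were the only 2 of 18 calcification and osteogenic genes to pass, beside 2.19% of all genes tested.

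Of 31 elastic fibre and microfibril genes 1 rose and 4 fell, beside 1.18% and 1% of all genes tested. The list had a median log2 fold change of 0.05. Mfap4, which encodes a microfibril-associated protein of elastic fibres, fell from 783, 582, 852 and 811 CPM to 474, 468, 445 and 465 CPM, and Mfap5, which encodes a microfibril component that binds fibrillin-1, from 347, 304, 315 and 286 CPM to 228, 202, 173 and 188 CPM (adjusted p = 0.0015 and 0.0019). The mutant values lay below every WT value for both. Ltbp4, which encodes a latent TGF-beta binding protein needed for elastic fibre assembly, fell from 1629–2064 to 1273–1517 CPM (adjusted p = 0.022), a call lost without C1041G/+ library 2 or 4 or WT library 1 or 7 (adjusted p = 0.056 to 0.082). Adamtsl4, which encodes a fibrillin-binding protein, fell by 0.43 on the log2 scale, a call lost without C1041G/+ library 4 or 6 or WT library 1 or 3 (adjusted p = 0.089 to 0.11). The 1 riser, Fbln7 (6.4–11.9 to 18.9–22.9 CPM), lost its call in each of the 8 leave-one-out fits (adjusted p = 0.053 to 0.11) and with the replicate number as a block (adjusted p = 0.07). Eln, the elastin gene, overlapped at 3293–5869 and 4107–6137 CPM (log2 fold change 0.08 ± 0.22).

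Collagen chain genes gave 1 rise and 1 fall among 36, beside 1.18% and 1% of all genes tested, with a median of -0.16. The interstitial collagen genes Col3a1 and Col1a2 had log2 fold changes of 0.00 ± 0.18 and 0.00 ± 0.20. Col18a1, a basement membrane collagen gene, rose from 2056, 1385, 2168 and 2162 CPM to 2732, 2812, 2793 and 2859.8 CPM. That call was lost without any 1 of the 4 mutant libraries or without WT library 1 (adjusted p = 0.051 to 0.078). Pcolce2, which encodes an enhancer of procollagen cleavage, fell from 134–159 to 97.1–112 CPM (adjusted p = 0.011).

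Several genes known from cartilage or heart valve were lower in the mutant libraries. Chad, which encodes chondroadherin, stood at 21.4, 41.6, 77.3 and 49 CPM in WT and 6.15, 2.18, 8.4 and 8.41 CPM in C1041G/+ libraries (log2 fold change -2.91 ± 0.43). Thbs4 (thrombospondin-4) went from 3.63, 16, 27.1 and 18.9 CPM to 1.37, 1.25, 3.22 and 3.86 CPM, where WT library 1 lay below mutant library 8. Cilp2, a cartilage intermediate layer protein gene, fell from 9.55, 18.9, 27.4 and 22.7 CPM to 8.41, 4.84, 7.75 and 6.46 CPM, and Wif1, which encodes a secreted Wnt inhibitor, from 106, 135, 212 and 184 CPM to 38.1, 31.3, 67 and 51 CPM. Epyc and Prelp, small leucine-rich proteoglycan genes, fell from 18.7–31.2 to 9.47–14.4 CPM and from 686–990.3 to 411–537 CPM. All 6 held in every leave-one-out fit, but Thbs4 and Epyc lost their call without C1041G/+ library 2 and WT library 3 together. Chad is a member of the cartilage marker list, and Wif1, Cilp2 and Thbs4 of the valve list, so their levels are part of those sums. The 15 cartilage markers summed to 99.3, 205, 394 and 273 CPM in WT and 91.9, 42.5, 116 and 100.4 CPM in C1041G/+ libraries. WT library 1 thus lay within the mutant range. Of these markers Matn1 was at 0 in all 8 libraries, Col2a1 was 0.27 to 6.07 CPM in WT and 0.27 to 1.37 CPM in mutant libraries, and Comp was 54.4, 98.0, 218 and 140 CPM and 53.1, 31.6, 67.2 and 62.4 CPM. Valve interstitial markers (10 genes, none at 0) summed to 1175 to 2144 CPM in WT and 1152 to 1529 CPM in C1041G/+ libraries. The part of these tissues in the falls was not tested.

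Scx, which encodes the tendon transcription factor scleraxis and was chosen after its values were seen, rose from 24.9, 29.1, 27.4 and 20.9 CPM to 66.2, 60.0, 35.9 and 43.6 CPM (adjusted p = 0.0086). Acan, a cartilage proteoglycan gene, rose in the same libraries, as given above.

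Adventitial fibroblast and macrophage markers separated the groups as sums, in opposite directions. The 14 fibroblast markers, none at 0, summed to 8445, 8953.8, 11476 and 10153 CPM in WT and 6524.6, 6583.8, 7790.8 and 7690.1 CPM in C1041G/+ libraries. Of the 14, Dpep1 rose and Dpt fell and 12 did not pass, beside 2.19% called of all genes tested. The median was -0.35. Dpep1, a dipeptidase gene, was 97.6 to 131 CPM in WT and 185 to 192 CPM in mutant libraries. Its call was kept only without WT library 1 (adjusted p = 0.053 to 0.098 without each of the other 7) and was lost without a count filter. Gsn, the largest contributor, was 2864 to 4336 CPM in WT and 1702 to 2597 CPM in mutant libraries. Dpt (dermatopontin) fell from 465–639 to 361–405 CPM. Its call was kept only without WT library 1 (adjusted p = 0.059 to 0.11 without each of the other 7), and it was lost without a count filter and with the replicate block (adjusted p = 0.067). The 15 macrophage markers, none at 0, summed to 1130.5, 1082, 1068 and 967 CPM in WT and 1552, 1309, 1275 and 1260 CPM in C1041G/+ libraries. Lyz2 (290 to 362 and 368 to 564 CPM), C1qb, C1qc, Cd68, Fcgr1 and Trem2 did not overlap between the groups, and none of the 15 passed over all genes with edgeR (5 had an unadjusted p under 0.05, and DESeq2 and voom called 1 each). Across all genes tested, 1487 (9.5%) did not overlap, 770 (4.92%) with the mutant libraries higher and 717 (4.58%) with them lower. Of the same 15645 genes, 2538 had an unadjusted p under 0.05, and DESeq2 called 768 and voom 393. The part of these cells in the changes of matrix genes was not tested.

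Heart muscle markers had a median log2 fold change of -1.47 over 20 genes, 1 of them called, beside 2.19% of all genes tested. That gene, Myh7, a myosin heavy chain gene of heart muscle, was 0.854, 3.31, 7.19 and 1.58 CPM and 0.427, 0.816, 0.819 and 0.801 CPM. It lost its call without C1041G/+ library 2, 4, 6 or 8 or WT library 3 or 5 (adjusted p = 0.056 to 0.14) and with the replicate block (adjusted p = 0.12). The summed markers were 316, 1412.5, 882 and 571 CPM in WT and 336, 392, 434 and 757 CPM in C1041G/+ libraries, so the groups overlapped.

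**Figure D3:**
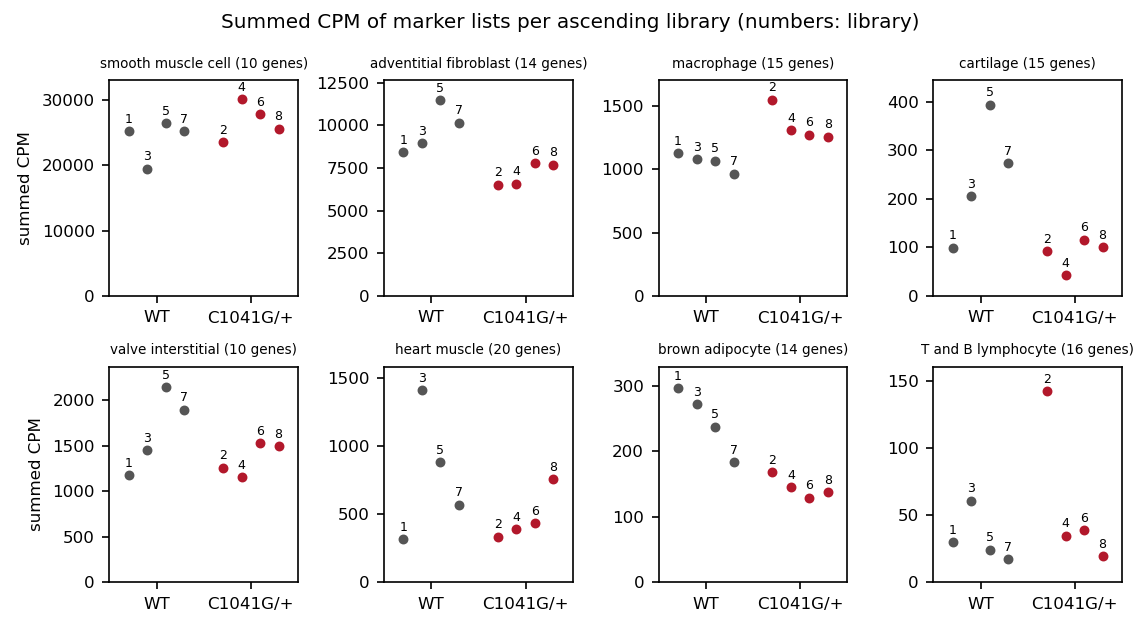
Summed CPM of 8 marker lists in each ascending library (WT in grey, C1041G/+ in red, the number beside each point being the library). Fibroblast and brown adipocyte sums are lower and macrophage sums higher in all 4 mutant libraries, WT library 1 lies with the mutant libraries for cartilage, and WT library 3 (heart muscle) and C1041G/+ library 2 (lymphocytes) stand apart.

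Of 52 genes of growth factors and their receptors other than those of TGF-beta and IGF, 9 rose and 1 fell. The median was 0.04, and of all genes tested 1.18% rose and 1% fell. Among ligands, Pdgfc rose from 36.5, 29.2, 31.1 and 33.8 CPM to 60.1, 48.5, 55.1 and 57.7 CPM and Pdgfa from 76.9, 63.1, 75.8 and 72 CPM to 107, 113, 92.7 and 102 CPM, both encoding platelet-derived growth factors that act on mesenchymal cells. Ereg, which encodes the EGF receptor ligand epiregulin, rose from 17.2, 15.3, 16.3 and 21.4 CPM to 38.7, 31.7, 32.7 and 31.6 CPM, and Fgf2, which encodes basic fibroblast growth factor, from 186, 173, 199.9 and 178 CPM to 241, 276, 264 and 263 CPM. Vegfd, which encodes a lymphatic and vascular growth factor, rose from 19.3–27.8 to 39.8–43.7 CPM. The receptor gene Fgfr2 rose from 64.3–82.1 to 108–141 CPM. For these 6 genes the groups did not overlap and all 8 leave-one-out fits kept the call. Vegfd lost its call without C1041G/+ library 2 and WT library 3 together. The other risers were Fgf1, Fgf16 and Fgfr1. Fgf1 lost its call without C1041G/+ library 4, 6 or 8 or WT library 1, 3 or 7 and Fgf16 without C1041G/+ library 2, 4, 6 or 8 or WT library 1, 3 or 7 (adjusted p = 0.065 to 0.11 and 0.057 to 0.11), and Fgfr1 lost its call without any 1 of the 8 libraries (0.051 to 0.1). The platelet-derived growth factor receptor gene Pdgfrb overlapped between the groups (log2 fold change -0.13 ± 0.18, adjusted p = 0.77).

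Of 20 insulin-like growth factor (IGF) ligand, receptor and binding protein genes 2 rose and 2 fell, beside 1.18% and 1% of all genes tested. Both ligand genes fell: Igf1 stood at 106, 93, 143 and 114 CPM in WT and 57.4, 53.4, 72.5 and 61.2 CPM in mutant libraries (adjusted p = 0.0057), and Igf2, at low levels, fell from 1.12–2.08 to 0.218–0.555 CPM. The Igf2 call was lost without C1041G/+ library 4 or 6 or WT library 3 or 7 (adjusted p = 0.06 to 0.065). The binding protein genes Igfbp2 and Igfbp7 rose, as given above. Igfbp4 did not overlap (744–903 and 993–1239 CPM) and did not pass (adjusted p = 0.22), and Igfbp5 overlapped.

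In the TGF-beta pathway 3 of 33 genes rose and none fell, beside 1.18% and 1% of all genes tested, with a median of 0.02. The 3 act at the level of the ligand. Tgfb3, 1 of the 3 ligand isoform genes, rose from 225, 229, 204 and 236 CPM to 411, 367, 326 and 289.7 CPM. Lrrc32, whose product GARP tethers latent TGF-beta at the cell surface, rose from 69.2, 56.7, 54.6 and 76.7 CPM to 135, 102, 123 and 128 CPM, and Inhba, the activin A subunit gene, from 153, 159, 193 and 197 CPM to 220.0, 244, 279 and 268 CPM. Pmepa1, a feedback inhibitor and common target of the pathway, had a log2 fold change of 0.02 ± 0.10 and Ski one of -0.07 ± 0.07. Of 29 bone morphogenetic protein pathway genes, Bmpr1b, a type I receptor gene, fell from 87.2, 56, 53.8 and 53.8 CPM to 31.7, 28.7, 25.5 and 33.3 CPM. That call was lost without C1041G/+ library 2, 4 or 6 (adjusted p = 0.059 to 0.064).

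Among proteolysis genes, 3 of 48 matrix proteases and inhibitors rose and 1 fell, beside 1.18% and 1% of all genes tested. Plau, which encodes urokinase, rose from 4.79–12.7 to 13.4–30.8 CPM and its receptor gene Plaur from 17.4–20.9 to 27–43.5 CPM. Plau lost its call without C1041G/+ library 2 or 4 or WT library 3, 5 or 7 (adjusted p = 0.068 to 0.11), and Plaur without C1041G/+ library 2 or WT library 3 (adjusted p = 0.066 to 0.08). Htra3, which encodes a secreted serine protease, fell from 316, 297, 332 and 312 CPM to 226, 207, 208 and 208 CPM (adjusted p = 0.00052). Timp2 had a log2 fold change of 0.07 ± 0.07.

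Receptor genes for vasoactive ligands moved both ways. Of 63 vasoactive receptor genes 2 rose and 3 fell, beside 1.18% and 1% of all genes tested. P2rx1, an ATP-gated cation channel gene of arterial muscle, rose from 22.9, 16.5, 27.6 and 22 CPM to 82.2, 96.7, 58.4 and 57.5 CPM. Ptgfr, which encodes the prostaglandin F receptor, fell from 26.4, 35.3, 17.3 and 18.7 CPM to 5.6, 7.4, 7.31 and 9.06 CPM, and Vipr2, a receptor gene for vasoactive intestinal peptide, from 6.36–8.54 to 1.92–3.81 CPM. Uts2r, the urotensin II receptor gene, fell from 0.8–2.85 to 0.0544–0.25 CPM. It was not among the calls with a stricter count filter (1 CPM or more in 4 libraries and a mean count of 20). Vipr2 did not pass with the replicate number as a block (adjusted p = 0.056), and held without each library. Gpr176, an orphan receptor gene, rose by 1.66 on the log2 scale. It lost its call without C1041G/+ library 2 or 4 or WT library 1 (adjusted p = 0.057 to 0.091) and with the block (adjusted p = 0.089).

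The potassium channel list had the lowest median of the 36 pathway lists, at -0.27. All 3 called genes of its 37 fell, beside 1% called lower of all genes tested. Beside Kcnj15 these were Kcnc4, a voltage-gated channel gene (25.9, 19.3, 16.9 and 16.9 CPM to 6.07, 7.45, 8.02 and 8.56 CPM), and Kcnk1, a two-pore channel gene (1.29–2.08 to 0.327–0.751 CPM). Kcnmb1, the smooth muscle subunit gene of the large-conductance calcium-activated channel, had a log2 fold change of 0.05 ± 0.07. Of 35 calcium handling genes 3 fell: Cacna2d3, an auxiliary calcium channel subunit gene, went from 4.8–6.4 to 1.3–2.67 CPM and held in every leave-one-out fit. Pkd2, the polycystin-2 channel gene, fell from 331, 335, 329 and 337 CPM to 259, 240.0, 269.9 and 279.6 CPM, a call lost without C1041G/+ library 2 or 4 (adjusted p = 0.054 to 0.065). Cacna1g fell by 1.1 and kept its call only without WT library 1 (adjusted p = 0.051 to 0.15 without each of the other 7). Rgs5, a pericyte and arterial muscle gene whose product shortens G protein signals, fell from 222, 227, 227 and 211 CPM to 72.6, 69.8, 108 and 99.2 CPM, and no mutant value reached a WT value (log2 fold change -1.34 ± 0.14, adjusted p = 6.1e-05). Mylk2, a myosin light chain kinase gene named for skeletal muscle, fell from 4.12–6.02 to 0.982–2.18 CPM. Casq1, a calsequestrin gene chosen after its values were seen, fell from 36.8–67.5 to 19.1–22.7 CPM. The 12 skeletal muscle markers summed to 7.71 to 13.7 CPM in WT and 5.85 to 10.6 CPM in C1041G/+ libraries. Tnnc2 was at 0 in all 8 libraries and Myog at 0.11 CPM or less. Ckm was at 1.23 to 5.61 CPM and Actn3 at 1.91 to 4.41 CPM.

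The contractile genes gave 3 rises and no fall among 45, beside 1.18% and 1% of all genes tested, with a median of 0.12. Acta2, the smooth muscle actin gene, was 9259.9–12622 and 12037–15684 CPM (log2 fold change 0.24 ± 0.12, adjusted p = 0.32), with its lowest value in WT library 3. The risers were Hspb1 and Cryab, which encode small heat shock proteins, and Tagln. Tagln (transgelin) rose from 53.5, 50.3, 47.8 and 54.8 CPM to 71.6, 73.4, 65.9 and 60.8 CPM, a call lost without C1041G/+ library 2 or 4 or WT library 3 or 5 (adjusted p = 0.053 to 0.078). It was counted at 25.9 CPM per kb of exon in WT libraries against 5217 for Acta2. Tagln overlaps Pcsk7 on the opposite strand, and how reads of overlapping genes were counted is not given in the sources used here. Rcan1, a calcineurin regulator induced by calcium signals, rose from 58.2, 74, 68.9 and 101 CPM to 207, 106, 184 and 181 CPM and was the 1 called gene of 14 in the calcineurin list.

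The list of 36 lipid droplet and glyceride genes had a median of -0.12. In it 5 rose and none fell, beside 1.18% and 1% of all genes tested. Among them Hmgcs1, Sqle and Idi1 encode enzymes on the way to cholesterol and not of droplets or glycerides. Hmgcs1 (HMG-CoA synthase) stood at 49.6, 46.2, 53.6 and 65.5 CPM in WT and 97.2, 83.4, 80.6 and 88.8 CPM in mutant libraries. Sqle (squalene epoxidase) rose from 20.1, 16.3, 24.7 and 25.6 CPM to 51.9, 39.5, 37.2 and 41.8 CPM, and Idi1 (isopentenyl diphosphate isomerase) from 9.45–15.7 to 20.6–28 CPM. Idi1 lost its call without C1041G/+ library 2 (adjusted p = 0.055). Msmo1 (methylsterol monooxygenase) is outside the list and was chosen after its values were seen; it rose from 28.5, 23.3, 40.1 and 38.2 CPM to 68.9, 58.6, 46.8 and 52.5 CPM. Mogat2, a monoacylglycerol acyltransferase gene, rose from 0.132–0.671 to 1.42–3.12 CPM and was not among the calls with the stricter count filter.

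Heat shock genes had a median log2 fold change of 0.41, with 4 of 34 called, all higher, beside 1.18% called higher of all genes tested. Hspb1 stood at 573, 673, 302 and 585 CPM in WT and 1710.1, 1492, 1218 and 1326 CPM in mutant libraries (log2 fold change 1.43 ± 0.25, adjusted p = 0.0057), and held in all leave-one-out fits. Hsp90aa1 rose from 900.4, 849.6, 568 and 1030.4 CPM to 1587, 1417, 1318 and 1651 CPM. Its call was kept only without C1041G/+ library 6 or WT library 7 (adjusted p = 0.055 to 0.1 without each of the other 6). Cryab (141–221 to 217–365 CPM) lost its call without C1041G/+ library 2 or 4 or WT library 1, 5 or 7, and Dnaja4 (16.2–31.7 to 37.1–66.1 CPM) was kept only without C1041G/+ library 4, with adjusted p of 0.087 to 0.17 and 0.059 to 0.18 where lost. Hspa8 overlapped at 1734, 1813, 1111 and 2091 CPM and 3239, 1715, 2615 and 3132 CPM. WT library 5 had the lowest value of Hspb1, Hsp90aa1, Cryab, Dnaja4 and Hspa8.

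Heat shock and sterol genes have textbook promoter elements, so the 250 bases before the start of 1 called gene of each set whose window holds a match are shown, with the matching letters in capitals. The sequences are from RefSeq (GRCm38.p6), 5′ to 3′ on the gene's strand. Hspb1 (chr5:135887669-135887918, plus strand) holds 2 matches to GAANNTTC, the core of a heat shock element, and Hmgcs1 (chr13:119690101-119690350, plus strand) holds 1 match to TCACNCCAC, a form of the sterol regulatory element.
Hspb1: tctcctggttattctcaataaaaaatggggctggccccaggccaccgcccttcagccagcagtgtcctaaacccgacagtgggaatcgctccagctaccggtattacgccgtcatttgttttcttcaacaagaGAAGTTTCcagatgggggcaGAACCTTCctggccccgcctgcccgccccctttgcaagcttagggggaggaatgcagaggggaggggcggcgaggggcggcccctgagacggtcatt
Hmgcs1: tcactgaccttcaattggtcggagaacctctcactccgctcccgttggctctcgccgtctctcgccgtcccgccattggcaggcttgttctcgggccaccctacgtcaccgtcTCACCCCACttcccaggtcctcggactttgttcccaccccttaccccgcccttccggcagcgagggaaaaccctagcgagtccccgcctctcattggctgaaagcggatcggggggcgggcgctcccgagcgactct
Of the other named genes of these sets searched, Idi1 and Msmo1 hold 0 matches to TCACNCCAC, and the 2 annotated starts of Dnaja4 have 0 and 2 matches to GAANNTTC. Both motifs were searched on both strands, and neither overlapped a match of the other in these 2 windows. GAANNTTC occurs in the same window of 6.11% of the 11482 tested genes with a RefSeq promoter, in 12.1% of the 140 such genes that rose and in 4.72% of the 106 that fell. The shares for TCACNCCAC are 1.24%, 1.43% and 0.94%. Other motifs searched in the same windows were the AP-1 site TGANTCA (5.83%, 11.43% and 8.49%), the TEAD site GGAATG (13.18%, 15.71% and 19.81%) and the CCAAT box (39.89%, 33.57% and 34.91%). The higher share among risers was thus not particular to GAANNTTC. These are descriptions of letters and say nothing of binding.

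Genes of inflammation, interferon response and cell cycle had positive medians, and the share called over all genes tested was 2.19%. Of 48 chemokine, cytokine and receptor genes 3 rose, with a median of 0.44. Osmr, the oncostatin M receptor gene, rose from 58.5, 58.8, 57.4 and 59.8 CPM to 96.3, 84.7, 83.4 and 78.7 CPM and held without each library, while Ccl12, a monocyte chemokine gene, rose from 1.68–2.74 to 3.61–7.65 CPM and lost its call without C1041G/+ library 2 or 4 or WT library 1, 5 or 7 (adjusted p = 0.09 to 0.17). Tnfrsf12a, the receptor gene for the cytokine TWEAK, was chosen after its values were seen and rose from 161, 183, 149 and 217 CPM to 433, 263, 344 and 369.8 CPM. Lgals3, which encodes galectin-3 and was chosen likewise, rose from 19, 20.7, 17.7 and 19.1 CPM to 52.8, 44.6, 29 and 26.4 CPM, and both held without each library. None of 38 interferon response genes (median 0.33) and none of 44 cell cycle genes (median 0.46) passed with edgeR. At an unadjusted p under 0.05 there were 11 and 13 of them, DESeq2 called 2 and 3, and voom called 1 and 0. Over all 15645 genes tested these counts were 2538, 768 and 393. Among integrin and other adhesion receptor genes, 1 of 32 rose. This was Itga5, the fibronectin receptor subunit gene, from 386, 333, 269 and 312 CPM to 802, 722, 460.1 and 475 CPM, a call lost without C1041G/+ library 2 or 4 or WT library 3, 5 or 7 (adjusted p = 0.067 to 0.098). Thymus and lymphocyte markers were highest in C1041G/+ library 2, at 117 and 142.5 CPM.

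**Figure D4:**
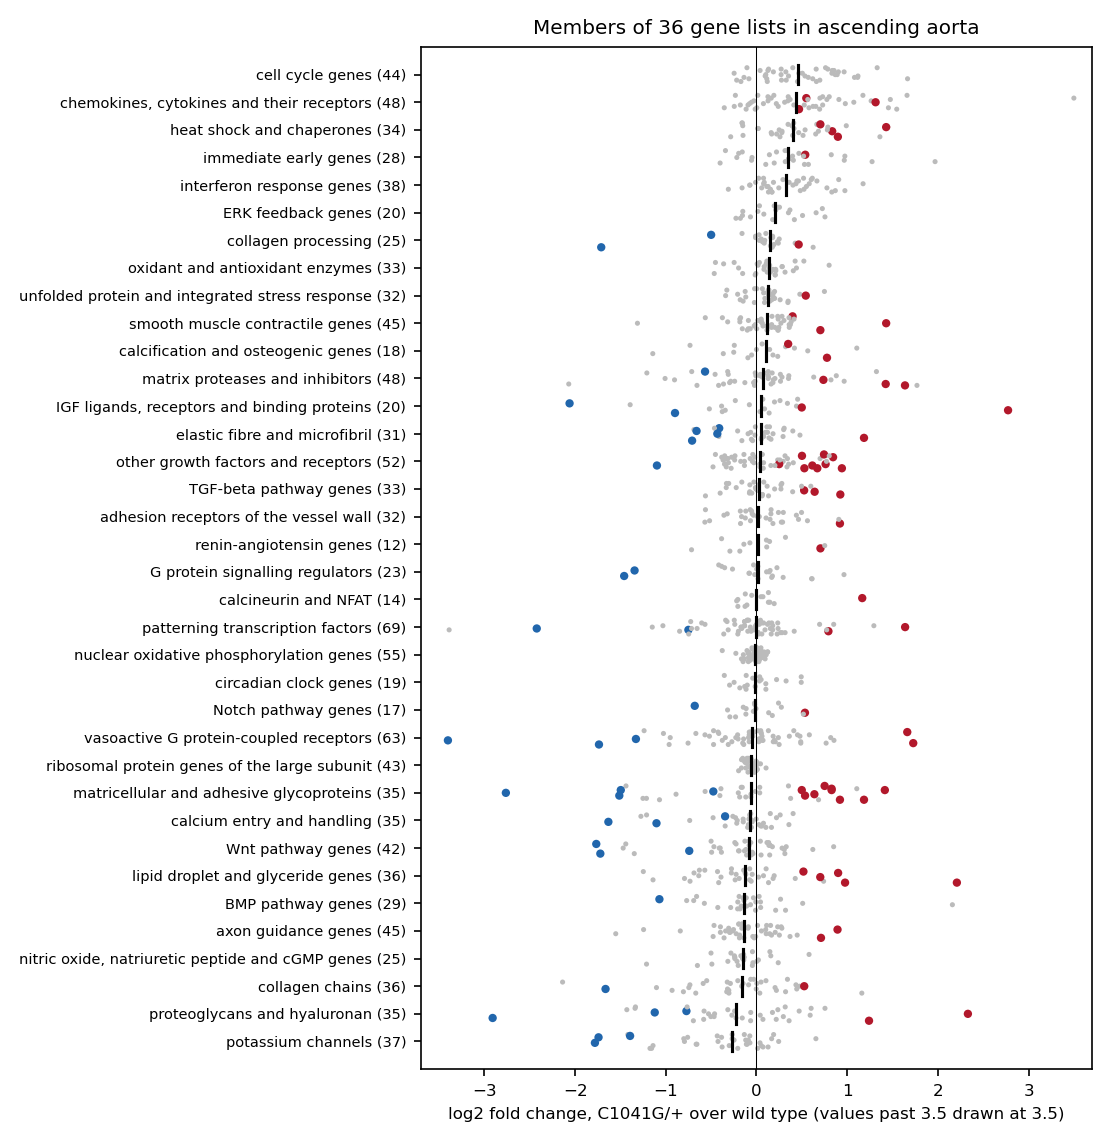
Log2 fold change (C1041G/+ over WT) of each tested member of 36 gene lists in ascending aorta, with the number tested in brackets, red and blue for members called higher and lower, grey for those not called, and a black bar for the list's median. Cell cycle, cytokine and heat shock lists have the highest medians, and the potassium channel list has the lowest, at -0.27.

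Several genes of the rule for named genes belong to none of the lists. Dpp10, whose product modulates potassium channels, rose from 2.43–3.62 to 5.94–12.8 CPM, and Ncs1, which encodes a neuronal calcium sensor, from 43.5–52.4 to 69.7–79.4 CPM. Cyb5r3, which encodes a reductase that acts on haem proteins of the vessel wall, rose from 594, 568, 655 and 651 CPM to 991, 1117, 957 and 907 CPM. Mapt, which encodes the microtubule protein tau, fell from 3.89–5.52 to 1.14–1.79 CPM. These 4 held in every leave-one-out fit and did not overlap between the groups. Esm1, an endothelial proteoglycan gene, rose from 1.28, 2.69, 2.55 and 2.06 CPM to 8.84, 13.9, 9.88 and 10.9 CPM. It was with Acan the other riser of 35 proteoglycan genes, of which 3 fell, beside 1.18% and 1% of all genes tested.

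Among 17 Notch genes 1 rose and 1 fell and among 42 Wnt genes 3 fell, beside 2.19% called of all genes tested. Of 17 Notch pathway genes, Notch3, the receptor gene of arterial smooth muscle, rose from 64.6, 52.9, 60.8 and 76.6 CPM to 79.7, 74.6, 100.3 and 115 CPM, and the target gene Hey1 fell from 11.3, 12.9, 10.9 and 9.2 CPM to 5.98, 7.67, 6.39 and 7.61 CPM. Of 42 Wnt pathway genes none rose and 3 fell: Wif1, the receptor gene Fzd9 (0.854–4.79 to 0.762–1.26 CPM) and the feedback gene Axin2 (9.23–17.5 to 6.41–7.51 CPM). Only Wif1 held in every leave-one-out fit. The others lost their call without C1041G/+ library 6 or 8 or WT library 1, 3 or 5 for Notch3 (adjusted p = 0.075 to 0.12), C1041G/+ library 2, 4 or 6 or WT library 1, 3 or 5 for Hey1 (0.063 to 0.14), C1041G/+ library 2 or 4 or WT library 5 for Fzd9 (0.056 to 0.066) and C1041G/+ library 2, 4, 6 or 8 or WT library 3 or 5 for Axin2 (0.051 to 0.096). With the replicate block Notch3 and Fzd9 also missed (adjusted p = 0.051 and 0.11).

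Guidance genes gave 2 rises among 45 and patterning genes 2 rises and 2 falls among 69, beside 2.19% called of all genes tested. Slit3, a secreted guidance ligand gene, rose from 352, 245, 349.8 and 375 CPM to 483, 522, 572 and 588 CPM, and Sema3e, a semaphorin gene, from 2.85–4.8 to 6.69–7.61 CPM, the 2 called of 45. Of 69 patterning transcription factor genes, Nkx6-1 (1.06–1.73 to 3.05–6.22 CPM) and Msc (0.96–1.33 to 0.15–0.299 CPM) held without each library, in opposite directions. Msc was not among the calls with the stricter count filter. In the renin-angiotensin list Enpep, whose aminopeptidase degrades angiotensin II, was the 1 called gene of 12, rising from 17, 14.4, 21.8 and 21 CPM to 29, 30.1, 32.7 and 29.3 CPM, and Ace had a log2 fold change of 0.14 ± 0.10. None of 25 cGMP pathway, 33 oxidant, 19 circadian clock, 43 ribosomal protein, 55 oxidative phosphorylation and 20 ERK feedback genes passed with edgeR. An unadjusted p under 0.05 was found for 3, 7, 1, 0, 3 and 3 of them, DESeq2 called 1 of the cGMP pathway genes and 0 of the others, and voom called 0. Over all 15645 genes tested, 2538 had an unadjusted p under 0.05, and DESeq2 called 768 and voom 393.

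In descending aorta, where 189 genes (1.21%) passed, the same contrast was fitted in the libraries that share the numbers 1 to 8, so the values are set side by side and the difference between the regions was tested as an interaction. Kcnj15 was the 1 gene of 15645 (0.00639%) whose genotype effect differed between regions in edgeR, where 795 genes had an unadjusted p under 0.05 and DESeq2 called 33. Its log2 fold change was -1.74 ± 0.15 in ascending and -5.71 ± 0.22 in descending aorta (interaction 3.97 ± 0.27, adjusted p = 8.2e-07), so the fall was larger in the descending segment. The count of genes whose effect differed was 10 without ascending WT library 1, 4 without descending WT library 5, and 2 without ascending WT library 3 or 5, descending WT library 1 or descending C1041G/+ library 4. Of the 342 genes called in ascending aorta, 321 had the same sign in descending aorta and 83 passed there in the same direction. Same-number libraries deviated together, so the 2 contrasts are not independent, and the share with the same sign over all genes was not counted. Acan had 1.24 ± 0.09 and 1.24 ± 0.09, Igf1 -0.90 ± 0.16 and -0.87 ± 0.16, and Hspb1 1.43 ± 0.25 and 1.38 ± 0.25. Msc had -2.42 ± 0.36 and 0.69 ± 0.35 (interaction adjusted p = 0.051), Sema3e 0.89 ± 0.16 and 2.13 ± 0.15 (0.085), and Hsd11b1 1.31 ± 0.16 and 0.13 ± 0.16 (0.19). Postn rose in ascending aorta by 0.64 and had 0.12 ± 0.11 in descending aorta (adjusted p = 0.79), and Mgp 0.78 and 0.25 ± 0.13; neither difference passed (interaction adjusted p = 0.61 and 0.76).

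**Figure D5:**
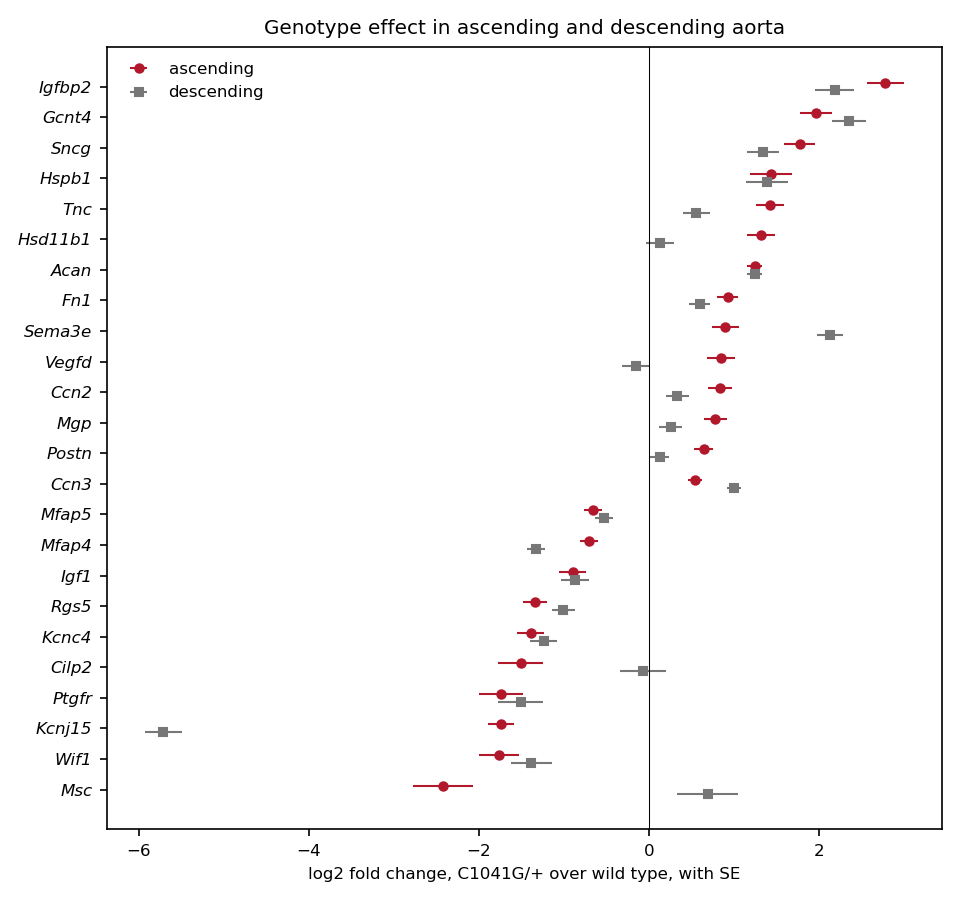
Log2 fold change (C1041G/+ over WT) with its SE for 24 genes called in ascending aorta, in ascending (red circles) and descending aorta (grey squares). Kcnj15 is the 1 gene whose difference between the regions passed, at -1.74 and -5.71; for Acan, Igf1 and Hspb1 the 2 points lie within 1 SE of each other.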

How the data were processed

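Per the labels' protocols, RNA from an RNeasy fibrous tissue kit was made into libraries with an NEBNext Ultra kit. The authors deposited raw counts per Ensembl gene for each library. Per the submitters' processing notes, fastp and STAR 2.6.1d were used with mm10; which tool counted the reads, whether it used strand and on which annotation is not given in the sources used here. Names of 99.77% of 54532 genes came from GENCODE M21 and promoters from RefSeq GRCm38.p6. Counts of the 16 untreated libraries were fitted together with edgeR 4.0.16 (R 4.3.3; filterByExpr, TMM, robust quasi-likelihood test, 12 residual degrees of freedom), and p-values were adjusted by Benjamini-Hochberg over 15645 genes at a threshold of 0.05. CPM are TMM-scaled, errors are SE for log2 fold changes and SD for means. The biological coefficient of variation was 15.9%. Tested on data simulated for the ascending comparison over 15645 genes, the fit recovered 68% of 2-fold and 89.9% of 4-fold changes, and 3.7% of its calls were false. The simulated counts were drawn independently with the spread estimated by this same fit, without linked numbers or outlying libraries. They therefore do not give the error rate of the real calls.

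Members and gene lists were chosen with earlier results of these data known. Genes named are Fbn1; among called genes at 1 CPM or more in a group mean and without overlap, the 15 largest rises and falls, the 10 smallest p and the 6 rises and 6 falls with the largest CPM difference, leaving out unnamed models, pseudogenes and receptor segments; and, per list, up to 8 called members by p and 2 not called with the highest CPM. Others are marked in the text, and a few genes are left unreported. Libraries of the 2 regions share the numbers 1 to 8, and the labels do not say what a number marks. The block is this replicate number in limma 3.58.1 voom. Libraries with the same number deviated together (r = 0.162 to 0.305 over 8 pairs, every pair above 0.1), against a mean of -0.0331 for other pairs. Of the 8 ascending libraries, 6 correlated best with the descending library of their own number. DESeq2 1.42.0, a fit of the 8 ascending libraries alone, other scaling, filters and leave-one-out fits were the alternatives.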

Additional observations from a re-analysis of the deposited data

Results flagged for a closer look

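The genotype effect on Kcnj15 differed between the regions by 3.97 on the log2 scale, tested as an interaction (adjusted p = 8.2e-07 with edgeR).

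In 25 of 430 groups of 4 libraries 1 library lay far from the other 3 by Dixon's ratio, and chance flags about 1 in 20 groups. WT library 3 was the low one for Col18a1 (1385 CPM), Flna (5818 CPM), Abcc9 (184 CPM), Itpr1 (269 CPM), Pde3a (311 CPM), Sod3 (756 CPM) and Nkx6-1 (1.06 CPM), and the high one for Tef (293 CPM) and Rplp0 (1397 CPM). WT library 1 was low for Gpr176 (0.480 CPM) and Tnfrsf1b (24.2 CPM) and high for Kctd16 (4.48 CPM), Bmpr1b (87.2 CPM) and Scd1 (322 CPM), and WT library 5 was low for Dnaja4 (16.2 CPM). C1041G/+ library 2 was the high one for Igfbp7 (5443 CPM), Htra3 (225.6 CPM) and Ereg (38.7 CPM) and for the sums of macrophage (1552 CPM), T and B lymphocyte (142.5 CPM) and thymus markers (117 CPM). It was the low one for Myh7 (0.427 CPM) and Dusp1 (199 CPM). C1041G/+ library 4 was high for Cst3 (2562 CPM), and C1041G/+ library 8 was low for Vegfd (39.8 CPM). For Igfbp7, Htra3, Ereg and Vegfd the groups did not overlap with these libraries included, and each call held without each library.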

How the results depend on the processing

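Of 3306 values of single genes under the alternatives, 2942 kept their side of the threshold, 355 lost it and 9 gained it. No value called in the main fit or in the alternative changed direction. Direction was not checked for values called in neither, nor in the fits that left out a descending library. DESeq2 called 774 genes in ascending aorta against 342, 187 at 2-fold or more against 108, 33 for the difference between regions against 1 and 407 in descending aorta against 189; the cause was not tested. Leaving out 1 ascending library gave 163 to 347 ascending calls, 62 to 133 at 2-fold or more and 1892 to 2339 genes without overlap, the last with fewer samples by construction. Leaving out 1 descending library gave 128 to 170 descending calls. Since the 16 libraries share 1 fit, leaving out a library of the other region gave 292 to 408 ascending calls (93 to 117 at 2-fold or more) and 168 to 205 descending calls. The region difference gave 1 to 10 without 1 library of either region. Leaving out C1041G/+ library 2 and WT library 3 together, chosen after seeing the data, left 110 calls and 42 at 2-fold or more. The 8 ascending libraries fitted alone gave 245 ascending calls, 205 of them among the 342, and 81 at 2-fold or more. Thbs4 and Msmo1, which held in every leave-one-out fit, were among the genes that lost their call in that fit. The region difference gave 6 without a count filter, 4 with non-robust dispersion, 5 with voom and the replicate block and 2 with voom and no block; the cause was not tested. With the replicate block voom called 400 genes in ascending aorta, 312 of them among the 342, against 393 without it. Besides the genes given above, the block ended the call of C1qtnf3, Kctd16, Col11a2, P3h2, Colgalt2, Meox2 and mt-Co3, and of no other named gene. At 18534146 to 23959303 counts a library, genes near 1 CPM rest on few counts.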

Other observations

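Genes often used as references did not behave alike. Actb rose by 0.46 and Gapdh by 0.29 on the log2 scale, calls lost without C1041G/+ library 2, 4 or 6 or WT library 1, 3 or 7 for Actb (adjusted p = 0.053 to 0.11) and without C1041G/+ library 2, 4, 6 or 8 or WT library 1, 3 or 5 for Gapdh (adjusted p = 0.052 to 0.12). Hprt, Rpl13a, B2m, Tbp and Ywhaz had log2 fold changes of 0.11, 0.11, 0.25, -0.01 and 0.14 and were not called. These genes were chosen after their values were seen.

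The mitochondrial gene mt-Co3 was counted at only 37.4, 136, 33 and 80.2 CPM in WT and 26.7, 27.1, 22.5 and 26 CPM in C1041G/+ libraries. Its fall was lost with the replicate block (adjusted p = 0.061) and without C1041G/+ library 2, 4, 6 or 8 or WT library 3 or 7 (adjusted p = 0.059 to 0.12).

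Brown adipocyte markers (14 genes) summed to 297, 273, 238 and 184 CPM in WT and 169, 146, 129 and 138 CPM in C1041G/+ libraries. The largest contributor in every library was Dio2, at 117 to 200.4 CPM in WT and 57.3 to 121 CPM in mutant libraries. Ucp1, the defining marker, was 9.34 CPM in WT library 1 and 0.0427 to 0.328 CPM in the other 7, and Elovl3, Otop1, Cpt1b and Slc27a2 were at 0 in at least 1 library. Kcnk3 lay higher in the mutant libraries, at 5.98 to 7.24 CPM in WT and 9.22 to 12.6 CPM, without overlap. Melanocyte markers (8 genes) summed to 36.2 to 49.1 CPM and 22.3 to 33.7 CPM, with Tyr and Slc45a2 at 0 in 2 mutant libraries each. Neither pair of sums overlapped, and edgeR called no gene of either list. An unadjusted p under 0.05 was found for 7 of 12 brown adipocyte and 3 of 6 melanocyte markers tested, and DESeq2 called 1 in each list. Over all 15645 genes tested, these counts were 2538 and 768.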
